A study of Mus musculus with 18 samples.

Results

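The enzymes of de novo purine synthesis were followed in ESD3 cells, with HPRT knocked down or intact (WT control), as they differentiated towards neurons. The set comprised 10 genes, Prps1, Ppat, Gart, Pfas, Paics, Adsl, Atic, Impdh1, Impdh2 and Gmps. The members were all probes whose gene symbol on the array equals one of these names, which gave 19 of 45281 probes and 10 of 30869 gene symbols. Of the 19 probes, 16 were detected, which means a detection p-value under 0.05 in at least 1 condition on each of its 3 arrays, as were 23172 of all 45281 probes. Each of the 10 genes had at least 1 detected probe.

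ESD3 is a mouse embryonic stem (ES) cell line of strain 129s2/SvPas, kept on a layer of mouse embryo fibroblasts with leukemia inhibitory factor and basic fibroblast growth factor. Control cells carried an shRNA against luciferase and knockdown cells an shRNA against HPRT, delivered by a virus that the labels call a retrovirus and the study's methods a lentiviral vector, and both were selected with puromycin as transduced populations. The methods name the human HPRT gene as the shRNA's target. Total RNA was measured at the ES stage, at the stage of spherical neural masses (SNM) and at the final neuronal stage of a protocol for dopaminergic neurons, with 18 bead arrays of the type Illumina MouseWG-6 v2. Each of the 6 conditions had 3. These 3 arrays were hybridised with 1 pool of RNA from replicate cultures, so every spread and p-value below covers the measurement on the arrays and not the variation between cultures.

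Cells obtain purine nucleotides by salvage and by de novo synthesis. In salvage, HPRT, the product of the gene Hprt1, joins the free bases hypoxanthine and guanine to phosphoribosyl pyrophosphate (PRPP) to give IMP and GMP. In the de novo route the ring is built on PRPP step by step until IMP is formed, and IMP is then turned into AMP or GMP. Cells that lack HPRT are known for an increased rate of de novo synthesis, which is ascribed to unused PRPP and to weaker feedback of nucleotides on the first committed enzyme. In dividing cells the enzymes of the route are held to supply nucleotides for nucleic acids, and several of them gather in assemblies called purinosomes. The arrays measure transcript levels, and neither enzyme activity nor flux was measured here.

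Signals are given as log2 after background correction and quantile normalization (neqc), each gene by its brightest probe, and they are compared only between conditions of the same probe. A probe is said to have changed, or to have passed, where its Benjamini-Hochberg adjusted p-value in limma was under 0.05, and is called where the change was also at least 1.5-fold, which is 0.58 on the log2 scale. The arrays detected between 18827 and 22202 probes each, and arrays of 1 condition correlated at 0.992 to 0.997. Hprt1, the targeted gene on the X chromosome, gave 12.04, 12.07 and 12.00 in control and 8.14, 7.96 and 7.75 in knockdown ES cells, 11.23, 11.23 and 11.13 against 9.34, 9.47 and 9.50 in SNM cultures, and 11.08, 11.03 and 11.03 against 6.56, 6.64 and 6.60 in neuronal cultures. Its signal was lower in knockdown than in control cells by 94.1% in ES cells, 70.5% in SNM cultures and 95.4% in neuronal cultures, with all knockdown arrays below all control arrays. The loss was thus smaller in SNM cultures than at the other stages, with log2 differences of -4.09, -1.76 and -4.45 and adjusted p-values of 2.17e-10 for SNM against ES and 7.21e-12 for neuronal against SNM. With 3 arrays a side an exact permutation test, two-sided, has 0.1 as its smallest p-value, and the p-values given are those of limma.

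The promoter windows of a few genes are shown first, because these genes lie together or share a motif. Whether these windows bear on the transcript levels described below was not tested. RefSeq (GRCm38.p6) windows of 300 bases, from 250 bases before to 50 after the gene start, were found for 9 of the 10 genes, with 10 windows in all since Impdh1 has 2. The starts of Paics and Ppat lie 276 bases apart on chromosome 5 on opposite strands, with 177 bases between their windows. By these coordinates each gene runs from its start towards that of the other, so the bases between the windows lie downstream of both starts. The E-box CACGTG, which reads the same on both strands and is known as a motif bound by Myc and related factors, was found in the windows of Paics, Atic and Impdh2, 3 of 9 genes, and in 7.15% of 32851 windows of the same length. Its first base lies at -203 from the gene start of Paics, at -7 from that of Atic and at -110 from that of Impdh2. A GC box (GGGCGG, either strand) was found in all 9 genes, against 35.7% of all windows, and a CCAAT motif (either strand) in 5 of 9, against 37.4%. A match describes letters and is not a shown binding site. The sequences run 5′ to 3′ on the strand of the gene in lower case, with the E-box in capitals, for Paics (chr5:76951052-76951351, plus strand), Ppat (chr5:76951529-76951828, minus strand, which holds no E-box), Atic (chr1:71556906-71557205, plus strand) and Impdh2 (chr9:108560186-108560485, plus strand).
Paics: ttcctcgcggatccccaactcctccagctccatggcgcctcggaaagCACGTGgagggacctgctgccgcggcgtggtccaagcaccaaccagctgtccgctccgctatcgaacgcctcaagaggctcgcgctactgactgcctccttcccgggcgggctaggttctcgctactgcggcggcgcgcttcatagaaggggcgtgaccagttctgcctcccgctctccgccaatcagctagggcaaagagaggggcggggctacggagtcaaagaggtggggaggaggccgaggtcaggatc
Ppat: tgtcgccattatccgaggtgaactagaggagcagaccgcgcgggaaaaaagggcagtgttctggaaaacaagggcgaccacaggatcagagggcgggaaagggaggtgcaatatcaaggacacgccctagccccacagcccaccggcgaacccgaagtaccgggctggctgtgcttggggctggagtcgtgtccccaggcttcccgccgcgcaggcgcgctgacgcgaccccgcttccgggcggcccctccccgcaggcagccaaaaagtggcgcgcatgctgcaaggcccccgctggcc
Atic: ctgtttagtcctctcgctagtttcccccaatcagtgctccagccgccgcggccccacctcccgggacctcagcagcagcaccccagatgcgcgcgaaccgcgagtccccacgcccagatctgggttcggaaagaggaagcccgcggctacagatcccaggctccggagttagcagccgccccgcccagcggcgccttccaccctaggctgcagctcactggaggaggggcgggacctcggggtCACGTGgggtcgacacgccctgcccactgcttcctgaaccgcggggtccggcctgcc
Impdh2: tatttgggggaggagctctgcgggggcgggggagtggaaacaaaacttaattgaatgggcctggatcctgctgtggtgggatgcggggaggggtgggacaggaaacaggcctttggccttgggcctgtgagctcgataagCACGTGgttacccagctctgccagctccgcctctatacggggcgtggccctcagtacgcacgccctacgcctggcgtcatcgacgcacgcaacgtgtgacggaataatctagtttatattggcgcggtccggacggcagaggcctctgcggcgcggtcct

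Transcripts of the route were highest in ES cells and fell at both steps of differentiation. In HPRT-knockdown cells they were further reduced in SNM cultures, where 9 of the 10 genes were lower than in control cells. By the neuronal stage 6 were, with Gmps at the edge of the test. At the ES stage none of the 10 genes passed the limma test between the cell types, and Gmps and Impdh2 were near its threshold. The largest knockdown differences were those of Adsl and Ppat in SNM cultures, 52.9% and 50.1% lower on the linear scale, and that of Prps1, the PRPP synthetase, in neuronal cultures. Impdh1 stood apart on its brightest probe, with no knockdown difference that passed at any stage and no fall after the SNM stage, while a second probe differed from it as given below.

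**Figure D1:**
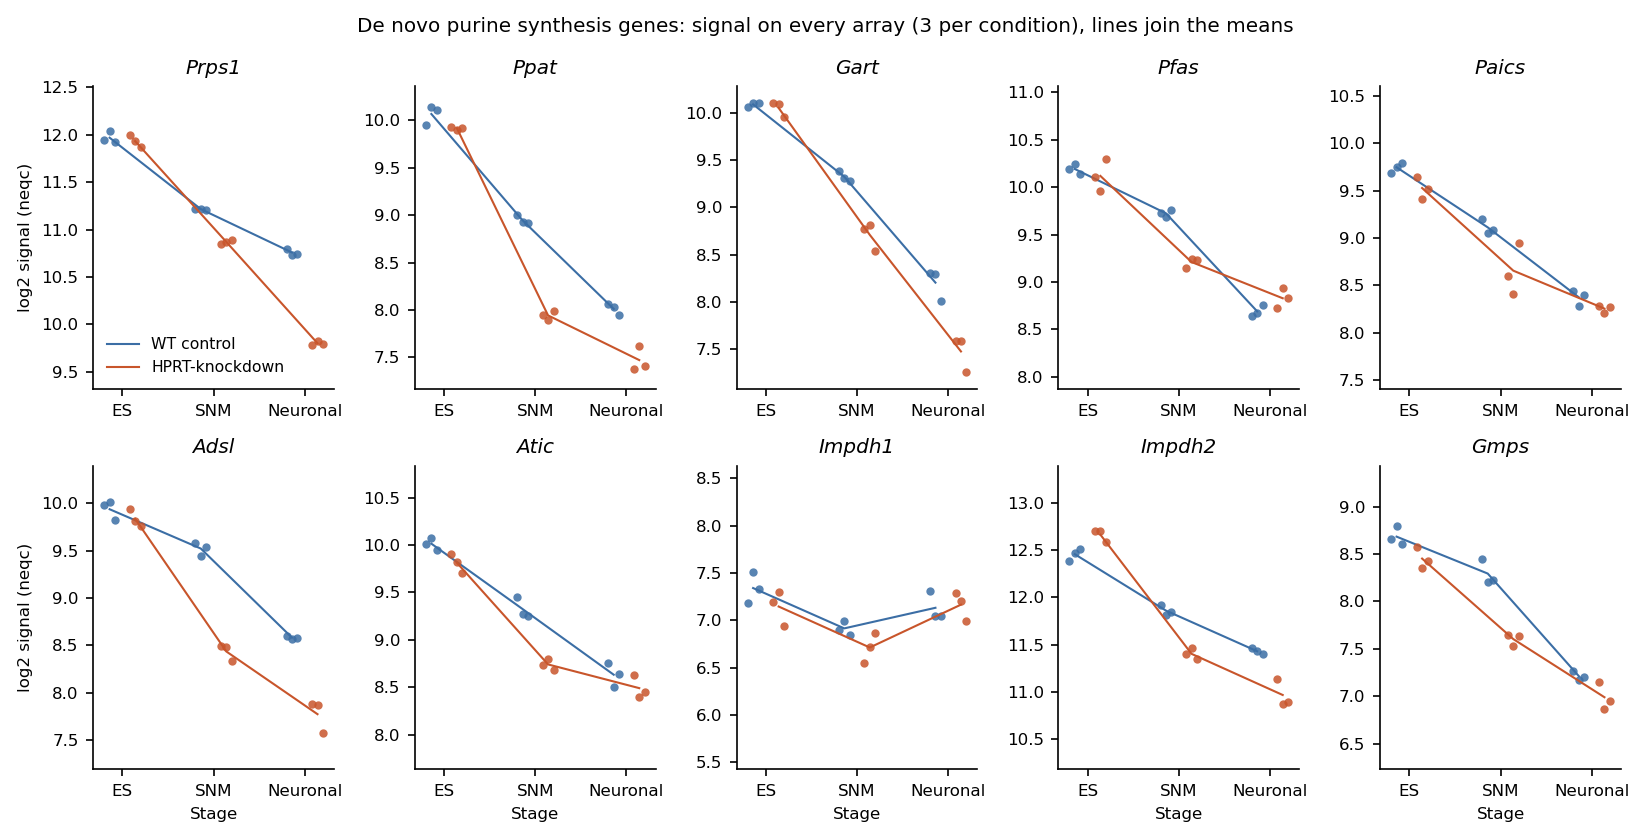
Log2 signal (neqc) of the brightest probe of each of the 10 genes on all 18 arrays, by stage, with points for arrays, lines joining condition means, and all panels spanning 3.2 log2 units. Control and knockdown points lie close in ES cells, and in SNM cultures the knockdown points lie below the control points for 9 genes, Impdh1 being the exception.

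The counts stand beside those over all probes tested in the same comparison. Between knockdown and control ES cells, 0 of the 10 genes changed in limma, while 5.51% of 18411 probes changed to lower and 5.80% to higher levels, and 1.68% were called. With the array number as a replicate block Gmps passed (-0.23, adjusted p = 0.0433), and with an offset of 50 Impdh2 passed to a higher level (0.21, adjusted p = 0.0368). At an unadjusted p-value under 0.05, 5 of the 10 genes and 4761 probes differed. For 5 genes the 2 sets of arrays were separate, as for 31.6% of probes. The median difference over the 10 genes was -0.13, and over all probes tested 0.01.

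At the SNM stage 9 of 10 genes were lower, as were 27.9% of 20765 probes, and 4 of them, Ppat, Gart, Adsl and Gmps, were called, against 8.90% of probes called lower. None of the 10 rose, against 24.8% of probes. The median over the set was -0.55, a signal 31.7% lower, against -0.04 over all probes. With the mean over the detected probes of each gene all 10 passed, Impdh1 among them (-0.38, adjusted p = 0.0155). With the unpaired t-test of the study's methods 8 passed, both unadjusted and adjusted. Paics did not pass there (unadjusted p = 0.05001, adjusted p = 0.104). The arrays did not overlap for 9 genes, a property shared by 56.1% of probes.

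At the neuronal stage 6 of 10 genes, Prps1, Ppat, Gart, Adsl, Gmps and Impdh2, were lower, against 28.8% of 20893 probes, and Prps1, Gart and Adsl were called, against 13.5% of probes called lower. None rose, against 29.4%. The arrays were separate for 7 genes and for 62.8% of probes. The median over the set was -0.34, 21.1% lower, and 0.01 over all probes. Gmps was at the edge of the test, with an adjusted p-value of 0.0357 that rose to 0.158 without knockdown neuronal array 2, and to 0.0547 with quantile normalization alone, so that 5 genes remained.

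**Figure D2:**
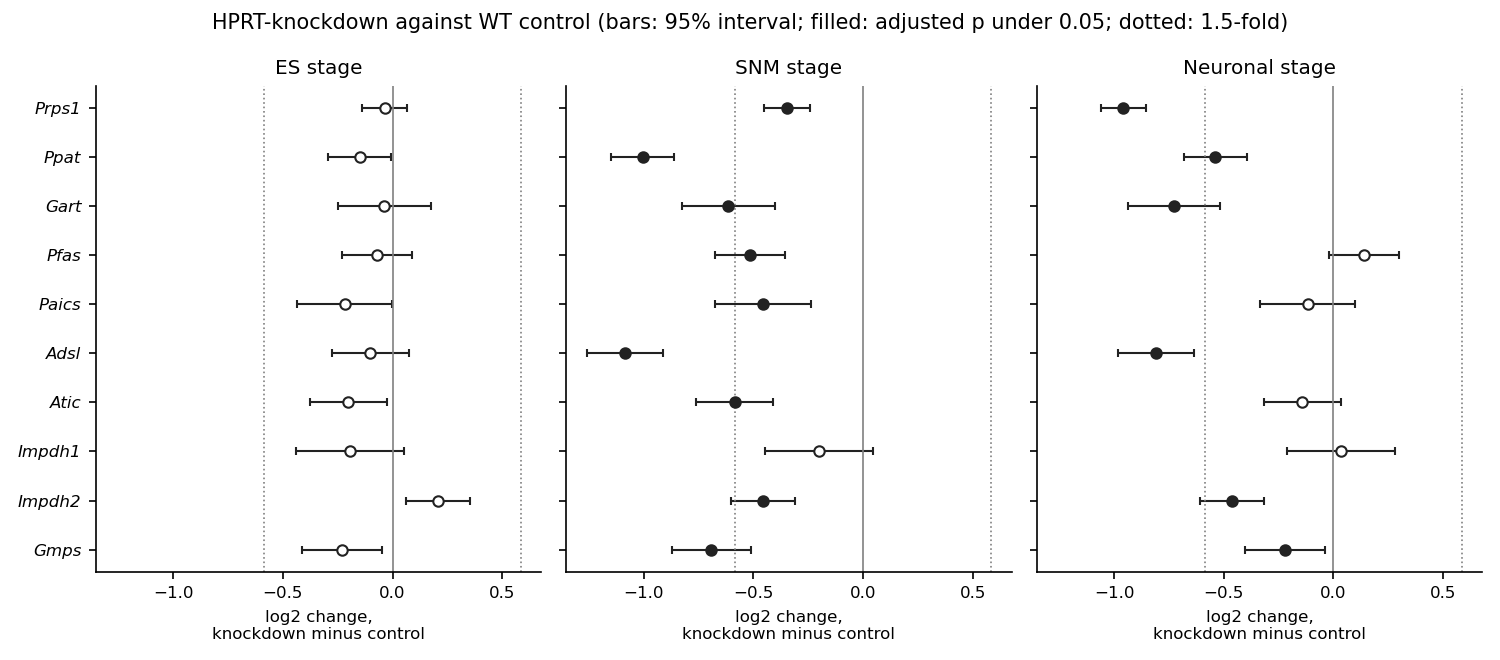
Log2 of knockdown over control signal for each gene at the 3 stages, with 95% confidence intervals from limma, filled points for adjusted p-values under 0.05 and dotted lines at 1.5-fold. All points are open in ES cells, 9 are filled in SNM cultures and 6 in neuronal cultures, all of these below 0.

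Prps1, on the X chromosome, makes PRPP, the substrate that both routes share. In ES cells Prps1 gave 11.94, 12.05 and 11.92 on the control arrays and 11.99, 11.93 and 11.88 on the knockdown arrays, which overlap. In SNM cultures Prps1 gave 11.22, 11.22 and 11.21 against 10.85, 10.87 and 10.89. In neuronal cultures Prps1 gave 10.80, 10.73 and 10.74 against 9.79, 9.83 and 9.79. From the SNM stage on, all knockdown arrays lay below all control arrays, and the gap widened. The difference was -0.35 ± 0.0486 (SE) in SNM cultures, 21.4% lower with an adjusted p-value of 1.97e-05, and -0.96 in neuronal cultures, 48.5% lower with an adjusted p-value of 6.73e-11. The growth of the gap between these stages, -0.61 ± 0.0687, had an adjusted p-value of 1.89e-06 and fell under 1.5-fold with quantile normalization alone (-0.58), with scaling to the 75th percentile (-0.38) and on unscaled signals (-0.45). Prps1 was the single gene of the set for which a larger knockdown difference after the SNM stage passed the test.

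Ppat catalyses the first committed step, the transfer of an amino group from glutamine to PRPP, and is the main point of feedback control. In ES cells Ppat gave 9.95, 10.14 and 10.11 in control and 9.93, 9.90 and 9.92 in knockdown cells. In SNM cultures Ppat gave 9.00, 8.92 and 8.92 against 7.94, 7.89 and 7.99. In neuronal cultures Ppat gave 8.06, 8.03 and 7.95 against 7.38, 7.62 and 7.41. Knockdown cells had thus reached, in SNM cultures, the level that control cells had in neuronal cultures, and the arrays of these conditions overlapped. In SNM cultures the knockdown signal was 50.1% lower, or 2.01-fold (log2 SE 0.0676, adjusted p = 5.91e-09), and in neuronal cultures 31.2% lower (-0.54, adjusted p = 3.92e-06). The latter is under 1.5-fold and passed that size without knockdown neuronal array 2 (-0.61). Between the ES and SNM stages Ppat fell by 1.98 on the log2 scale in knockdown cells and by 1.12 in control cells, the largest falls of the set in either cell type at that step. The second Ppat probe was dimmer and was detected on no array of knockdown SNM cells or of either neuronal condition. It therefore gives no measured size for the later knockdown differences, and in ES cells it gave -0.14 (adjusted p = 0.456).

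Gart is a trifunctional enzyme of the early steps, and Pfas builds the next intermediate with glutamine. In ES cells Gart gave 10.06, 10.10 and 10.10 in control and 10.10, 10.09 and 9.95 in knockdown cells. In SNM cultures Gart gave 9.39, 9.31 and 9.27 against 8.77, 8.81 and 8.54. In neuronal cultures Gart gave 8.31, 8.30 and 8.01 against 7.59, 7.59 and 7.26. The knockdown arrays were below the control arrays at both later stages and mixed with them in ES cells. Gart was 34.6% lower in SNM cultures (-0.61 ± 0.099, adjusted p = 7.99e-05) and 39.6% lower in neuronal cultures (-0.73, adjusted p = 1.00e-05). The SNM change is close to the minimum of 1.5-fold and was under it without control SNM array 1 (-0.58) or knockdown SNM array 3 (-0.53), with quantile normalization alone (-0.56), on unscaled signals (-0.57) and with an offset of 50 (-0.58). The second Gart probe gave -0.77 in SNM cultures (adjusted p = 2.19e-06) and -0.65 in neuronal cultures (adjusted p = 8.40e-06). Gart had the widest span of condition means in the set, 2.61 on the log2 scale or 6.09-fold from control ES cells to knockdown neuronal cells.

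Pfas went the other way after the SNM stage. In ES cells Pfas gave 10.19, 10.25 and 10.14 in control and 10.10, 9.96 and 10.29 in knockdown cells. In SNM cultures Pfas gave 9.72, 9.69 and 9.76 against 9.15, 9.25 and 9.23. In neuronal cultures Pfas gave 8.64, 8.67 and 8.75 against 8.73, 8.93 and 8.83. It was 30.0% lower in knockdown cells in SNM cultures (-0.51 ± 0.0751, adjusted p = 3.02e-05), whereas in neuronal cultures the arrays overlapped and the difference was 0.14, with a 95% interval of -0.02 to 0.30 (adjusted p = 0.129). The change of the knockdown difference between these stages was 0.65 (adjusted p = 9.63e-05). Pfas had fallen by 1.03 in control cells and by 0.38 in knockdown cells at this step. Its second probe was dim, with condition means from 4.88 to 5.42, and the mean of both probes gave 0.39 for that change, under 1.5-fold, and -0.15 for the step in knockdown cells, which did not pass. For the step in control cells that mean gave -0.54, under 1.5-fold, the second probe alone giving -0.04 (adjusted p = 0.758). For knockdown against control SNM cells the second probe alone gave -0.10 and did not pass (adjusted p = 0.466). Pfas passed that comparison with the mean of both probes.

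Paics joins carbon dioxide and aspartate to the growing ring, Adsl cleaves fumarate both there and on the way from IMP to AMP, and Atic closes the ring to give IMP. Adsl had the largest knockdown difference of the set. In ES cells Adsl gave 9.98, 10.01 and 9.83 in control and 9.94, 9.81 and 9.76 in knockdown cells. In SNM cultures Adsl gave 9.59, 9.44 and 9.54 against 8.49, 8.49 and 8.33. In neuronal cultures Adsl gave 8.60, 8.56 and 8.58 against 7.88, 7.87 and 7.58. The groups overlapped in ES cells and were separate afterwards, with knockdown SNM cells already below control neuronal cells. Adsl was 52.9% lower in SNM cultures (-1.09 ± 0.0817, adjusted p = 2.10e-08) and 42.9% lower in neuronal cultures (-0.81, adjusted p = 3.40e-07). The knockdown difference in SNM cultures exceeded that in ES cells by 0.99 in size (adjusted p = 6.35e-06).

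Paics and Atic, both read by probes listed with RefSeq transcripts, showed a smaller SNM difference than Adsl and no passing difference in neuronal cultures. In SNM cultures Paics gave 9.20, 9.05 and 9.08 in control and 8.60, 8.41 and 8.95 in knockdown cells, 27.1% lower (-0.46 ± 0.103, adjusted p = 0.00146). Knockdown SNM array 3 was high, and without it the difference was -0.60, past 1.5-fold. With all arrays Paics did not pass the unpaired t-test of the study's methods (unadjusted p = 0.05001). In SNM cultures Atic gave 9.45, 9.27 and 9.25 against 8.74, 8.80 and 8.69, 33.3% lower (-0.58 ± 0.082, adjusted p = 1.96e-05) and just short of 1.5-fold. Atic reached that size without control SNM array 2 (-0.61) or 3 (-0.62) or knockdown SNM array 2 (-0.62), and its other detected probes gave -0.68 and -0.73. In neuronal cultures Paics gave 8.44, 8.28 and 8.40 against 8.28, 8.21 and 8.27, a difference of -0.12 (95% interval -0.34 to 0.10). In neuronal cultures Atic gave 8.76, 8.50 and 8.64 against 8.63, 8.39 and 8.45, a difference of -0.14 (-0.32 to 0.03). The Atic arrays overlapped there, and those of Paics almost touched. In ES cells Paics gave 9.69, 9.75 and 9.79 against 9.64, 9.41 and 9.52, and Atic gave 10.01, 10.08 and 9.95 against 9.91, 9.82 and 9.71. These ES differences of -0.22 and -0.20 came from arrays that did not overlap, and had adjusted p-values of 0.192 and 0.131. Paics and Ppat, whose starts lie next to each other, thus differed in size, with knockdown signals 27.1% and 50.1% lower in SNM cultures and log2 differences of -0.12 and -0.54 in neuronal ones, a contrast between probes that was not tested.

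Beyond IMP, the IMP dehydrogenases Impdh1 and Impdh2 lead to XMP, the rate-limiting step towards guanine nucleotides, and Gmps converts XMP into GMP. In ES cells Impdh2 gave 12.39, 12.46 and 12.51 in control and 12.70, 12.70 and 12.59 in knockdown cells. In SNM cultures Impdh2 gave 11.92, 11.82 and 11.84 against 11.40, 11.47 and 11.35. In neuronal cultures Impdh2 gave 11.46, 11.43 and 11.40 against 11.14, 10.87 and 10.90. Impdh2 was the single gene whose knockdown ES arrays all lay above the control arrays, by 0.21 (95% interval 0.06 to 0.35, adjusted p = 0.0655), and at the later stages they all lay below. It was 27.1% lower in SNM cultures (-0.46 ± 0.0689, adjusted p = 4.16e-05) and 27.4% lower in neuronal cultures (-0.46, adjusted p = 2.63e-05). The difference changed by -0.66 between ES cells and SNM cultures (adjusted p = 5.85e-05) and by -0.01 from there to the neuronal stage (adjusted p = 0.97). The probes of Impdh2 and Adsl are annotated without a RefSeq transcript, and those of Ppat and Pfas with a predicted one.

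In ES cells Gmps gave 8.65, 8.79 and 8.60 in control and 8.57, 8.36 and 8.43 in knockdown cells. In SNM cultures Gmps gave 8.45, 8.21 and 8.23 against 7.65, 7.53 and 7.64. In neuronal cultures Gmps gave 7.27, 7.17 and 7.20 against 7.15, 6.87 and 6.95. The knockdown arrays were below the control arrays at all stages, with the widest gap in SNM cultures. There Gmps was 38.1% lower (-0.69 ± 0.0854, adjusted p = 5.23e-06), a change that fell under 1.5-fold with quantile normalization alone (-0.58) and on unscaled signals (-0.55). The differences at the ES and neuronal stages were -0.23 (adjusted p = 0.0947) and -0.22 (adjusted p = 0.0357).

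Impdh1, the isoform known for its high level in retina and blood cells, gave between 6.55 and 7.51 on all 18 arrays. In SNM cultures Impdh1 gave 6.55, 6.72 and 6.87 with knockdown, and its lowest control array gave 6.85. Its knockdown differences were -0.19 in ES cells (95% interval -0.44 to 0.05), -0.20 in SNM cultures (-0.45 to 0.05) and 0.03 in neuronal cultures (-0.21 to 0.28), and its arrays overlapped at each stage. It fell by 0.43 from the ES to the SNM stage in both cell types, while on unscaled signals the change was -0.02 and -0.04 and did not pass. After the SNM stage it rose by 0.45 in knockdown cells (adjusted p = 0.00314), which 28.4% of probes also did, and the 0.22 in control cells did not pass (adjusted p = 0.117). That rise did not pass on unscaled signals (0.28) or with the mean over probes (0.21). A second Impdh1 probe disagreed, with a fall of 1.07 between ES cells and SNM cultures in control cells and 1.52 in knockdown cells, a further 0.48 fall to the neuronal stage in control cells (adjusted p = 0.042) and -0.03 in knockdown cells. That probe also gave -0.56 for knockdown against control SNM cells (adjusted p = 0.0251). After the ES stage this second probe was dim, with means of 5.75 in control and 5.20 in knockdown SNM cultures. In neuronal cultures its means were 5.27 and 5.17, and it was detected on 2 of 3 knockdown arrays. The behaviour of Impdh1 therefore depends on the probe that is read.

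Between stages the set fell in both cell types, and the timing differed. From the ES to the SNM stage all 10 genes fell in control cells, as did 40.9% of 20703 probes, and 6 were called (Prps1, Ppat, Gart, Paics, Atic and Impdh2), against 25.4% of probes. In knockdown cells all 10 fell, against 44.2% of 21467 probes, and 9 were called, all but Impdh1, against 30.9%. The set had a median change of -0.61 in control cells and -1.07 with knockdown, and -0.08 and -0.11 over all probes. In control cells the call of Impdh2 (-0.60) was lost without control ES array 3 (-0.57) or control SNM array 2 (-0.57). Adsl had one of the smaller falls in control cells (0.41) and the second largest in knockdown cells (1.40).

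After the SNM stage 9 of 10 genes fell in control cells, against 34.7% of 20697 probes, and 7 were called (Ppat, Gart, Pfas, Paics, Adsl, Atic and Gmps), against 15.1%. In knockdown cells 9 fell and Impdh1 rose, against 32.1% of 21125 probes that fell, and Prps1, Gart, Adsl and Gmps were called, against 14.8%. The set had a median change of -0.84 in control cells and -0.45 with knockdown, and -0.07 and -0.02 over all probes. The largest falls at this step were those of Gart, by 1.12 in control and 1.23 in knockdown cells, followed by Gmps (1.08) in control and Prps1 (1.07) in knockdown cells. In knockdown cells the call of Gmps (-0.61) was lost without knockdown neuronal array 2 (-0.55) and that of Adsl (-0.66) without knockdown neuronal array 3 (-0.56). The fall of Atic in knockdown cells, 0.25 with an adjusted p-value of 0.015, did not pass without knockdown SNM array 2 or knockdown neuronal array 2.

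**Figure D3:**
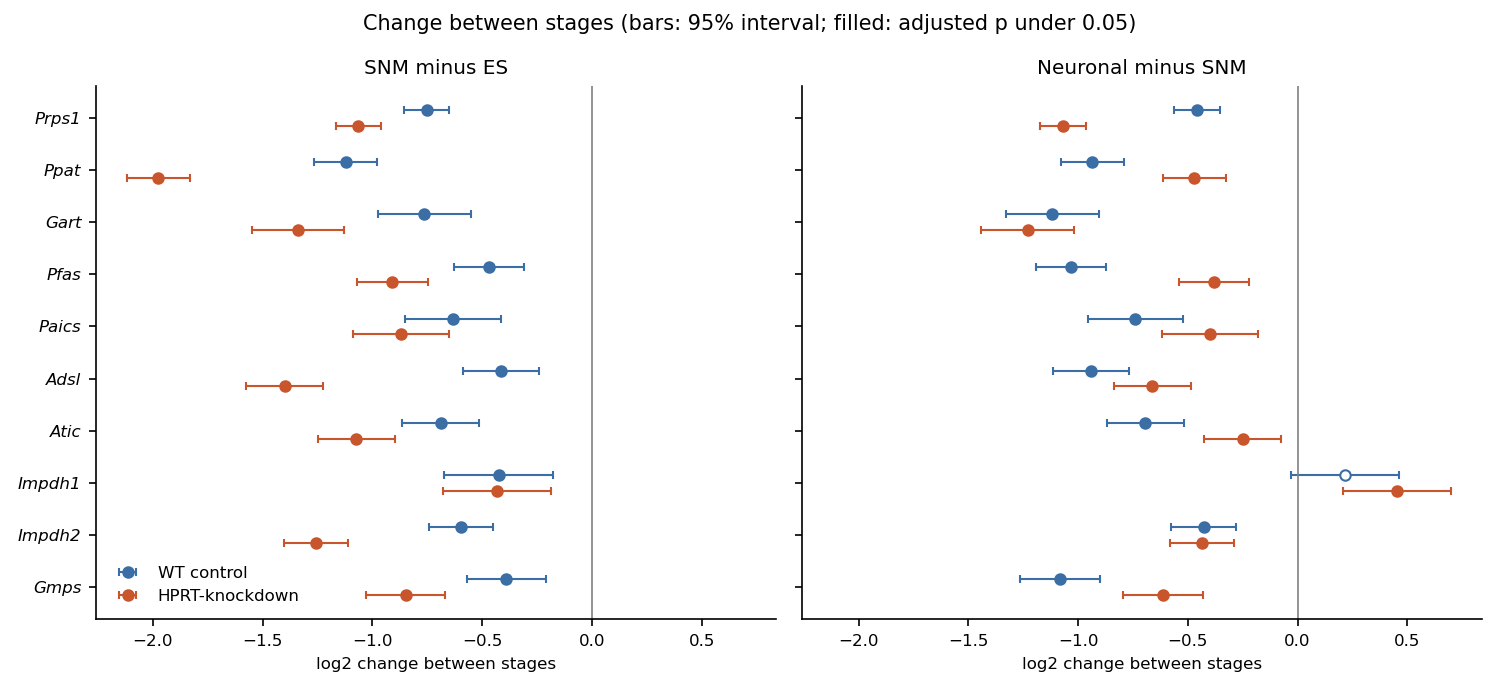
Log2 change of each gene from ES cells to SNM cultures and on to neuronal cultures, in WT control and HPRT-knockdown cells, with 95% confidence intervals from limma and filled points for adjusted p-values under 0.05. At the first step the knockdown points lie left of the control points for 9 genes and level with the control point for Impdh1, and at the second step those of Prps1 and Gart lie left and those of Ppat, Pfas, Paics, Adsl, Atic, Gmps and Impdh1 right of the control points.

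The test of the knockdown difference in SNM cultures against that in ES cells was passed by 8 of 10 genes, all towards lower knockdown levels, and by 21.5% of 22125 probes in that direction. Paics (-0.24, adjusted p = 0.21) and Impdh1 (-0.01, adjusted p = 0.979) did not pass, and Paics did without knockdown SNM array 3 (-0.39, adjusted p = 0.0108). Of the 8, Ppat (-0.85), Adsl (-0.99) and Impdh2 (-0.66) exceeded 1.5-fold, against 9.61% of probes. Gart (-0.58) was next and exceeded it without control SNM array 3 (-0.60), knockdown ES array 3 (-0.62), or knockdown SNM array 1 (-0.61) or 2 (-0.63). With the mean over the detected probes of each gene 7 genes passed, since Pfas did not (-0.26, adjusted p = 0.0736).

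From the SNM to the neuronal stage the knockdown difference shrank for Ppat (0.46), Pfas (0.65), Atic (0.44) and Gmps (0.47), 4 of 10 genes against 24.5% of 22160 probes, and grew for Prps1 (-0.61), against 22.5%. Of these Pfas and Prps1 exceeded 1.5-fold, in directions that 13.7% and 14.8% of probes took. Adsl (0.28, adjusted p = 0.0592) and Paics (0.34, adjusted p = 0.0677) did not pass. With the replicate block both passed (adjusted p = 0.0238 and 0.0399), as they did with quantile normalization alone (0.0173 and 0.0414) and with scaling to the 75th percentile (0.0177 and 0.0183), which makes 6 genes with a smaller difference. In the model without the block Adsl passed without control SNM array 2 (0.32, adjusted p = 0.0483) or knockdown neuronal array 3 (0.38, adjusted p = 0.00684), and Paics without knockdown SNM array 3 (0.49, adjusted p = 0.00176). The knockdown differences of Gart (-0.61 and -0.73) and Impdh2 (-0.46 and -0.46) were about as large at both stages. The comparisons between cell types and between stages share arrays, so their results are not independent of each other.

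Over the 6 conditions, 9 genes had their highest mean in control ES cells and Impdh2 in knockdown ES cells. The order below it was knockdown ES, control SNM, knockdown SNM, control neuronal and knockdown neuronal cells for Prps1, Gart, Paics, Atic and Gmps. In Ppat, Adsl and Impdh2 control neuronal cells came before knockdown SNM cells, and in Pfas knockdown neuronal cells came before control neuronal cells. Impdh1 ran from control ES through knockdown neuronal, knockdown ES, control neuronal and control SNM to knockdown SNM cells, and of these neighbours only control neuronal and control SNM cells had separate arrays. Neighbours whose arrays overlapped were control and knockdown ES cells for Prps1, Gart, Pfas and Adsl, knockdown SNM and control neuronal cells for Ppat, Paics, Atic and Impdh2, control and knockdown neuronal cells for Pfas and Atic, and knockdown ES and control SNM cells for Gmps. Averaged over the 10 genes and centred, the profile ran through 0.84, 0.73, 0.21, -0.38, -0.51 and -0.89 in that order of conditions. Pearson's r of each gene with the mean of the other 9 over the 6 condition means lay between 0.959 and 0.991, and was 0.319 for Impdh1. This is a description of 6 points that share the normalization, without a test. The probes outside the set whose profile was most like its mean were those of LOC100039346, Gtf2h2, Net1, E2f4 and Mis12, with r from 0.9991 to 0.9999, and their own ranges over the conditions were from 0.57 to 2.22.

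Dimmer probes of the set gave 6 further tested readings in most comparisons, of Ppat, Gart, Pfas, Atic (2 probes) and Impdh1. All 6 had the sign of the brightest probe for knockdown against control at the ES and SNM stages and for the ES to SNM step in both cell types, and 5 of 6 changed in SNM cultures, among them that of Ppat, which the knockdown SNM arrays did not detect. In neuronal cultures 4 of the 5 tested had the same sign, Impdh1 being the exception. There 1 of 5, that of Gart, changed to a lower level, against 28.8% of probes. After the SNM stage 5 of 6 had the same sign in control cells, all but Impdh1. In knockdown cells 3 of 5 did, all but Impdh1 and Pfas, and 2 changed to lower levels, against 32.1% of probes. The remaining probes, 1 each of Adsl, Atic and Impdh1, were not detected on all arrays of any condition.

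Genes around the route were counted on lists chosen by function. Of the PRPP synthetase relatives, Prps2, Prpsap1 and Prpsap2 were tested, and none was called between the cell types. Prps2 gave -0.56 in SNM cultures and 0.44 in neuronal cultures, a direction opposite to that of Prps1 there. Of 10 genes of the AMP branch, the nucleotide kinases and ribonucleotide reductase, 0 were called in ES cells, 3 lower in SNM cultures and 4 lower in neuronal cultures. Those were Adssl1 (-0.77 and -1.88), the muscle form of adenylosuccinate synthetase, Rrm1 (-0.59 and -0.71) and Rrm2 (-1.38 and -1.45), the subunits of ribonucleotide reductase, and in neuronal cultures Ak1 (-1.08), the adenylate kinase of muscle and brain. Adss, the form found in most tissues, gave -0.17 and -0.38 and was not called.

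Of the tested salvage and breakdown genes, Hprt1 was the single call in ES cells. At the SNM stage Nt5e, the ecto-nucleotidase that frees adenosine, was called higher (0.62) and Hprt1 lower. At the neuronal stage 3 of 11 were called higher, Ada (0.87), Ampd3 (1.49) and Nt5e (1.91), and 3 lower, Hprt1, Nt5c2 (-1.57) and Ampd1, the muscle AMP deaminase, which was detected on no knockdown array. Aprt, the salvage enzyme for adenine, gave -0.05, -0.48 and -0.11 at the 3 stages, and Adk, adenosine kinase, -0.10, -0.53 and 0.33, none of them called. The median of the list was -0.16 in SNM cultures and 0.12 in neuronal cultures, with Hprt1 and Ampd1 at their fitted values.

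Folate carries the one-carbon units that Gart and Atic use. Of 12 tested genes of that supply, 0 were called in ES cells. At the SNM stage Aldh1l1, which is also a marker of astrocytes, was higher (1.90) and Mthfd2, a mitochondrial folate enzyme, lower (-0.93). Of 11 tested in neuronal cultures, Mthfs (0.93) and Aldh1l1 (0.66) were higher and Tyms (-1.70), thymidylate synthase, and Shmt1 (-1.09) lower. In control cells 8 of 12 were called lower and 1 higher in neuronal than in SNM cultures, with Gldc (-1.89), Mthfd2 (-1.31), Tyms (-1.19) and Shmt1 (-1.10) lowest. Of 7 genes of de novo pyrimidine synthesis, Umps (-0.66) and Ctps (-0.89) were called lower in SNM cultures and Umps (-0.81) in neuronal cultures, while Cad, the enzyme of the first steps, gave -0.56 and -0.50 and was not called.

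Of these lists, that of proliferation genes had the most calls towards lower levels. Of its 15 tested genes, 0 were called in ES cells, 11 were called lower in knockdown cells in SNM cultures and 14 in neuronal cultures, with medians of -0.08, -0.74 and -0.95. Mcm3 (-0.97), of the helicase that unwinds DNA for replication, Cdc2a (-0.89), the kinase that drives mitosis, and Aurkb (-0.87), a mitotic kinase, were the lowest in SNM cultures. The summed signal of the list was 14030 to 14338 on the knockdown and 22409 to 22861 on the control SNM arrays, and 4193 to 4322 against 8722 to 9038 in neuronal cultures. In control cells 6 of them fell past 1.5-fold on the way to SNM cultures and 15 after that, and in knockdown cells 14 and 15. The part of proliferation in the levels of the purine genes was not tested. Of the Myc network and Atf4, Myc was called lower in ES cells (-0.64) and higher in neuronal cultures (1.14), with -0.42 in SNM cultures, and Mycl1 was called lower in SNM cultures (-0.90). Atf4 gave 0.21, -0.21 and 0.04 and was not called.

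**Figure D4:**
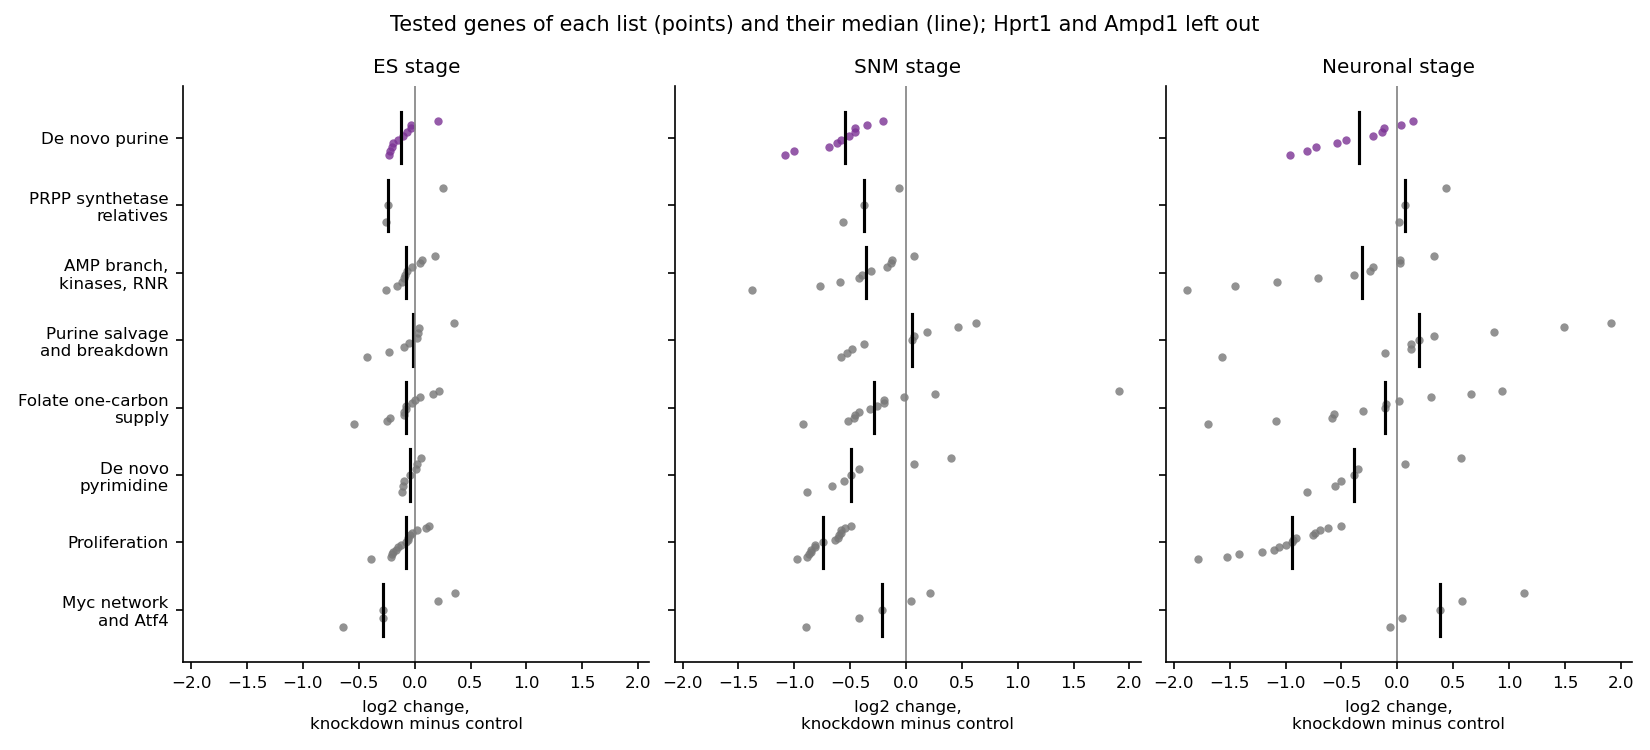
Log2 of knockdown over control signal for every tested gene of the set and of 7 other lists at the 3 stages, with a black line at the median of the genes drawn and vertical offsets for legibility. Hprt1 and Ampd1 are left out, and the median of the proliferation genes lies furthest to the left at the SNM and neuronal stages, with the 10 purine genes between -1.09 and -0.20 in SNM cultures.

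The cultures also differed in cell type markers, counted here where they were called. In RNA from whole cultures, fewer cells of a type and less RNA per cell cannot be told apart. ES markers were present in both ES conditions, and 0 of 8 were called between the cell types. There 1 of 4 astrocyte, 1 of 5 muscle and 1 of 4 endothelial markers were lower with knockdown. At the SNM stage 6 of 7 tested oligodendrocyte markers were lower in knockdown cells (summed signal 3006 to 3387 against 10143 to 10331), 4 of 8 astrocyte markers and 6 of 7 skeletal muscle markers were higher (summed muscle signal 3038 to 3317 against 1597 to 1633), and 4 of 7 ES markers and 2 of 6 neuron markers were lower. Of the fibroblast markers 2 of 8 were higher, of the endothelial markers 2 of 6 were higher and 1 lower, and of the microglial markers 0 of 2 were called.

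At the neuronal stage the difference in markers was far larger. All 8 oligodendrocyte markers were higher in knockdown cells, with a summed signal of 60442 to 63082 against 1074 to 1141, and all 8 skeletal muscle markers were lower, with 333 to 454 against 74975.5 to 75863. In knockdown cells 5 of 6 neuron, 7 of 8 fibroblast, 7 of 7 ES and 3 of 3 endothelial markers were also lower, and 6 of 8 astrocyte markers were higher. Summed signals with knockdown and in control were 1231 to 1249 and 7165 to 7771 for neuron, 11342 to 14580 and 21697 to 24915 for fibroblast, and 15028 to 15765 and 8665 to 9328 for astrocyte markers. Of the 8 neuron markers 6 were detected in control neuronal cultures, Stmn2 (12.01), Dcx (10.44), Ina (9.83), Syt1 (9.61), Nefm (7.31) and Tubb3 (5.06). There Stmn2, Dcx and Ina were called higher than in SNM cultures and Nefm lower. In control ES cells Stmn2 already gave 10.20 and Ina 8.24, against 4.82 for Dcx and 4.43 for Syt1. With knockdown Stmn2 gave 8.93, Dcx 8.47, Ina 6.26 and Syt1 7.57. Nefl and Snap25 were detected on no array of either neuronal condition, and Tubb3 on none of the knockdown condition. Of the microglial markers 5 of 8, among them Cx3cr1, C1qa and Tyrobp, were detected on no array at this stage. Of the muscle markers Tnnt3 and Ckm were detected on no knockdown array. The part of the cell types in the knockdown differences of the purine genes was not tested, and genes such as Adssl1, Ak1 and Ampd1 are themselves known from muscle.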

How the data were processed

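Total RNA of 18 samples was measured on 1-colour Illumina MouseWG-6 v2 bead arrays. The deposited table holds, per the file headers, a non-normalized signal intensity and a detection p-value for each probe and array. The authors scanned and quantified the arrays with Illumina's BeadArray software, whose version and settings are not given in the sources used here, and 72 per-sample columns that match no sample were not used. Intensities were background corrected, quantile normalized and log2 transformed with neqc (limma 3.58.1, R 4.3.3, offset 16). A model of the 6 conditions was fitted to all 18 arrays (lmFit, contrasts.fit, eBayes, two-sided). P-values were adjusted by Benjamini-Hochberg over the probes detected in at least 1 compared condition (detection p-value under 0.05 on each of its 3 arrays). Changes called had an adjusted p-value under 0.05 and were at least 1.5-fold. Each gene was read by the probe with the highest mean log2 signal. Scripts were tested on simulated data, and tables and drawings were made with Python 3.11.15.

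Every gene of the set is named. Of the other lists only some of the called genes are named, in long lists those with the largest changes. A few defining members chosen after their values were seen are named as well. The set and the lists were chosen with earlier results of these data known. Array numbers were taken to pair samples where all correlations of deviations passed a set minimum. These were knockdown against control SNM cells (0.486, 0.108 and 0.489) and knockdown neuronal against SNM cells (0.522, 0.139 and 0.511). Every other comparison fell short with some array number. Knockdown against control neuronal cells did so only narrowly (0.605, 0.0938 and 0.325), so a shared effect of the array number is not excluded there. Alternatives covered normalization, offset, detection filter, fold, probe, samples in the fit, replicate block, the methods' t-test and leaving out arrays. The number of arrays limits the precision. Probe sequences were not used here.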

Additional observations from a re-analysis of the deposited data

Results flagged for a closer look

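The knockdown difference changed between the ES and SNM stages by -0.85 for Ppat, whose call ended with the mean over probes (-0.52). It changed by -0.99 for Adsl and by -0.66 for Impdh2 at the same step. Between the SNM and neuronal stages it changed by -0.61 for Prps1. For Pfas it changed by 0.65 at that step, in the opposite direction. Each of these differences passed the limma test of the difference itself and was at least 1.5-fold.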

How the results depend on the processing

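Over the alternatives no called change of a gene reversed. Of the changes of single genes 1693 stayed on their side of the threshold, 45 gained and 52 lost a call, and in 29 cases a change that was not called turned its sign. Of the counts of genes called, 157 stayed within 1.5 times and 22 moved. For knockdown against control SNM cells the count of 4 became 2 with quantile normalization alone, 2 on unscaled signals, 2 at 2-fold and 9 without a minimum fold. At the neuronal stage the count of 3 became 0 at 2-fold and 6 without a minimum. From ES to SNM in control cells 6 became 2 on unscaled signals, 1 at 2-fold and 10 without a minimum. For the later step 7 in control cells became 3 at 2-fold, and 4 in knockdown cells became 2 with quantile normalization alone, with scaling to the 75th percentile and at 2-fold, and 10 without a minimum. For the change of the knockdown difference from ES to SNM 3 became 0 at 2-fold and 8 without a minimum, and from SNM to the neuronal stage 2 became 1 with quantile normalization alone, with scaling, on unscaled signals and with the mean over probes, 0 at 2-fold and 5 without a minimum. Apart from the fold minimum, which acts by construction, the cause was not tested. Leaving out 1 array gave 0 to 0, 3 to 5 and 3 to 4 genes for knockdown against control at the 3 stages, 5 to 6 and 9 to 9 from ES to SNM in control and knockdown cells, 7 to 7 and 3 to 4 from SNM to the neuronal stage, and 3 to 4 and 2 to 2 for the changes of the knockdown difference. With the replicate block the counts were 0, 4 and 3 for knockdown against control, 6, 9, 7 and 4 for the stage steps, and 3 and 2 for the changes of the knockdown difference, so the block moved no count by over 1.5 times. In the paired comparisons it changed no call, and it let Gmps pass in ES cells and Adsl and Paics pass for the later change of the knockdown difference. Of all probes, 310 were called in ES cells, and 57 with quantile normalization alone, 56 with scaling, 48 on unscaled signals, 81 with an offset of 50, 25 at 2-fold, 2082 without a minimum and 78 with the methods' t-test after adjustment. Of 4127 called in SNM cells 2326 were called with quantile normalization alone, and of 5732 at the neuronal stage 3690. Unscaled signals moved the median of all probes from -0.08 to 0.10 for the ES to SNM step in control cells. Arrays of 1 pooled RNA cannot show variation between cultures.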
